A study of Mus musculus with 15 samples.

Results

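The genes described are 10 transcripts commonly read as a measure of signalling through the kinases MEK and ERK, in mouse embryonic stem cells that all grew with a MEK inhibitor. They are listed by name, with no threshold on their values, though earlier results of these data were known when the list was made. They are Etv1, Etv4, Etv5, Fos, Egr1, Myc, Dusp4, Dusp6, Spry2 and Spry4, 10 of the 38355 genes in the authors' deposited table. RNA was sequenced from 15 samples in 5 groups of 3 replicates, which the series' design text calls biological. Ezh2-KO (genotype Ezh2[-/-]) and its floxed wild type Ezh2-WT, Suz12-KO (Suz12[-/-]) and Ring1A+B-DKO (Ring1a[-/-]; Ring1b[-/-]) were grown beside the wild-type line E14-WT (E14TG2a). Ezh2 and Suz12 are core subunits of Polycomb repressive complex 2 (PRC2), the methyltransferase for histone H3 lysine 27, and Ring1A and Ring1B are the catalytic subunits of Polycomb repressive complex 1 (PRC1), which attach ubiquitin to histone H2A. All 5 groups were in 2i medium on gelatin, with the MEK inhibitor PD0325901 at 1 µM, a GSK3 inhibitor at 3 µM and leukaemia inhibitory factor, so no sample without MEK inhibition is among them. The number of clones behind each line is not given in the sources used here, and no wild type of the Suz12-KO or Ring1A+B-DKO line is named, so those comparisons also hold any difference between lines.

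In this pathway a fibroblast growth factor (FGF) binds its receptor, and the small GTPase RAS then switches on the kinases RAF, MEK and ERK in turn. ERK drives immediate early genes such as Fos and Egr1 and the ETS factors Etv1, Etv4 and Etv5, and it also induces its own inhibitors, the DUSP phosphatases and the Sprouty proteins. In mouse embryonic stem cells, FGF4 made by the cells themselves activates ERK and prepares exit from the naive state, which a MEK inhibitor counters.

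The table holds 1 log2 fold change from DESeq2 and 1 call per gene for each of 4 comparisons, with no value per sample, no standard error and no p-value. Spread between replicates and depth per sample are therefore unknown here, and the words rose and fell are kept for genes that the authors called. Each fold change sets the named group over its control, which for the columns against E14-WT reverses the deposited sign. Sizes are drawn towards 0 for genes with few reads. Where a gene has no value in a comparison, neither group was taken to have a read of it. Of the deleted genes, Ring1, which encodes Ring1A, fell by 2.03 on the log2 scale in Ring1A+B-DKO. Suz12 stood at -1.04 in Suz12-KO, Ezh2 at -0.14 in Ezh2-KO and Rnf2, which encodes Ring1B, at 0.17 in Ring1A+B-DKO, all uncalled; which exons were removed is not stated. All 8 embryonic stem cell markers examined, Pou5f1, Sox2 and Nanog among them, had a value in all 4 comparisons, but the table gives no levels to rank them.

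Across the comparisons the authors called 2 of the 10 genes, both in Ring1A+B-DKO, where Fos rose and Etv5 fell. Per the authors' deposited table, 3% of the 19693 genes with a value were called there, 2.38% as higher and 0.62% as lower. None of the 10 was called in Ezh2-KO, where 0.177% of genes were called, and none of the 9 with a value was called in Suz12-KO (0.2% of genes) or between the wild-type lines (0.607%). With so few calls in all, 0 calls among 9 or 10 genes says little about them. The 10 genes in Ezh2-KO had a median log2 fold change of 0.19, beside -0.01 for all genes, and a median size regardless of sign of 0.37, beside 0.14. In Suz12-KO the 9 genes with a value had a median of -0.13, beside -0.03, and a median size of 0.36, beside 0.16. The Ring1A+B-DKO median was -0.38, beside 0.07, and the median size 0.76, beside 0.27. Some of these medians include values shared exactly with other genes, and without them they were 0.32 in Ezh2-KO, -0.35 in Suz12-KO and -0.54 in the double knockout. Leaving out shared values is not the same as leaving out genes with few reads. In Ezh2-KO it removed Myc, whose value 3 genes share, 0 of them without a read in some group. It kept Egr1 there, which by the reading above had no read in Ezh2-WT. In Suz12-KO it removed Fos and also Dusp4, whose value only 2 genes share. Between the wild-type lines the median was -0.23, beside -0.02, and the median size 0.47, beside 0.20. All genes with a value include those with few reads, whose sizes are drawn towards 0. Without levels, no set of genes with like reads could be used instead, here or for the shares of genes given below.

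Counted by size alone, 4 of the 10 genes reached an absolute value of 1 in Ring1A+B-DKO, beside 8.1% of all genes. In each of the other comparisons 1 gene did, Dusp4 in Ezh2-KO, Spry2 in Suz12-KO and Dusp4 between the wild-type lines, beside 0.674%, 0.822% and 2.32% of genes. Spry2 lay so near that size that, centred on the median of all genes, it stood at -0.995 in Suz12-KO and Dusp6 at 1.001 in its place. A size of 0.5 was reached by 8 genes in Ring1A+B-DKO, beside 27.9% of all genes, and by 4 in Ezh2-KO (8.35%), 3 in Suz12-KO (9.14%) and 4 in Ezh2-WT over E14-WT (16.5%). The authors' own call is used in what follows.

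**Figure D1:**
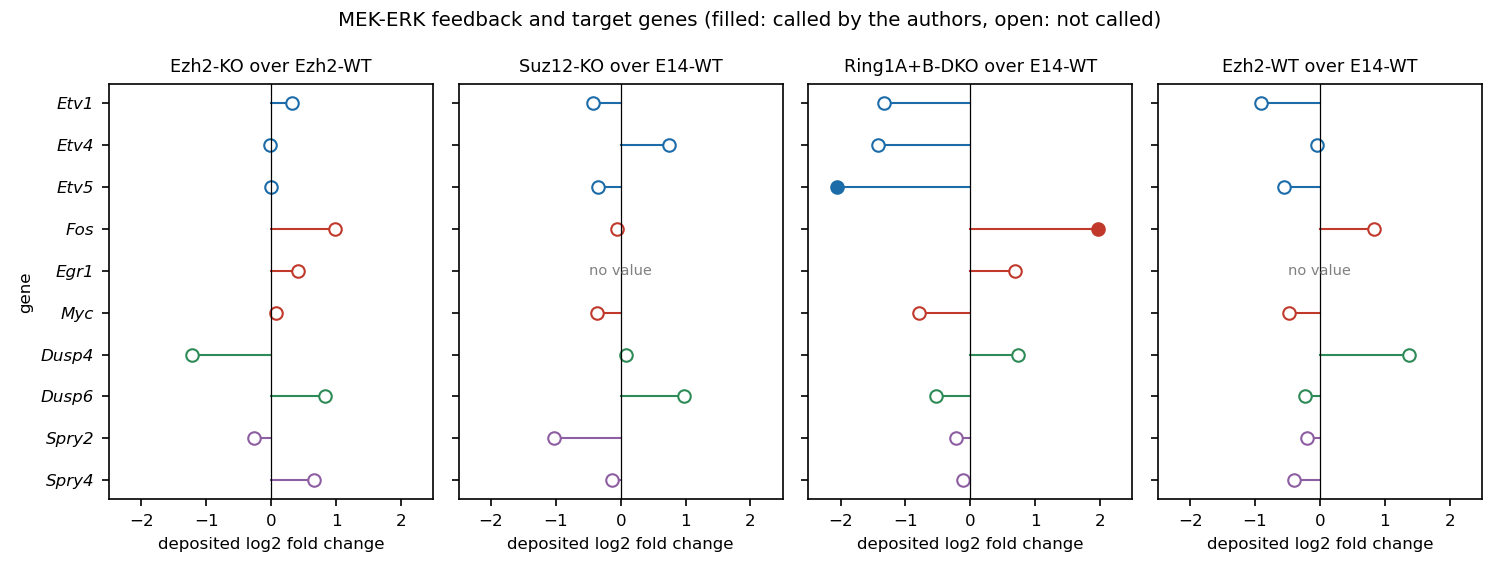
Deposited log2 fold change (x axis) of each of the 10 genes (rows) in the 4 comparisons (panels), coloured by role, with filled points for genes the authors called. In Ring1A+B-DKO the 3 Etv genes lie left of 0, between -2.06 and -1.33, and Fos lies at 1.97.

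Polycomb complexes are known to gather at promoters rich in CpG, and the sequence before the start of the called genes, and of Etv1 as a relative of Etv5, is therefore shown, with CpG in capitals. Sequences are from RefSeq's GRCm38.p6 assembly and cover up to 250 bases before the RefSeq start; for Etv5 only the 101 bases outside annotated exons are printed. The Fos stretch is chr12:85473640-85473889 on the plus strand, that of Etv5 chr16:22439720-22439820 on the minus strand, and that of Etv1 chr12:38779832-38780081 on the plus strand, within an intron of a longer annotated transcript.
Fos: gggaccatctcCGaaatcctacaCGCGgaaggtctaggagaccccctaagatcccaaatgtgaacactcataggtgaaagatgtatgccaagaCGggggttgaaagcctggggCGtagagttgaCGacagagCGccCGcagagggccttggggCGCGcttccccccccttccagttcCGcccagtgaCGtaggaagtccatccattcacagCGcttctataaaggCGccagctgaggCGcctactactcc
Etv5: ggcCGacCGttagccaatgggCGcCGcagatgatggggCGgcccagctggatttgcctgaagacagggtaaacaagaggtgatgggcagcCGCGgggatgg
Etv1: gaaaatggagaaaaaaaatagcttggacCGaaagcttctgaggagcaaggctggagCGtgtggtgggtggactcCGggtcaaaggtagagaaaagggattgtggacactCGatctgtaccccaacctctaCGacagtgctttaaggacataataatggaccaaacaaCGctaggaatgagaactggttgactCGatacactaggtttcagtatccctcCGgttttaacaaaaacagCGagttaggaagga

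In the 250 bases before the start, the observed over expected CpG ratio was 0.705 for Fos, 0.897 and 0.780 for the 2 starts of Etv5, 0.864 for Dusp6 and 0.947 for Spry2. The starts of Etv1 gave 0.699 and 0.082. The median over all 32851 windows in the table was 0.373. So 6 of the 7 windows, of 5 genes, lay above the median. The ratio was lower than that of Fos in 73.6% of all windows, and lower than those of the Etv5 starts in 88.2% and 79.4%. Polycomb binding was not measured here, and a link between these ratios and the calls was not tested. The core ETS motif GGAA was sought on both strands, and occurred 5 times before Fos, 0 and 4 times before the starts of Etv5, 6 times before Dusp6, 3 times before Spry2, and 2 times and 1 time before those of Etv1; 93.4% of all windows hold it. The longer ETS motif CCGGAA, which contains GGAA, the cyclic AMP response element TGACGTCA and the CArG box of serum response factor had 0 matches in these 7 windows, against 12.0%, 1.55% and 1.47% of all windows with a match. Only matches to these patterns within the 250 bases were sought, so variant sites and sites farther from the start would be missed.

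The 3 ETS factors of the Pea3 subfamily, Etv1, Etv4 and Etv5, which bind DNA and switch on genes downstream of FGF, had the 3 lowest values of the 10 genes in Ring1A+B-DKO. Etv5 (ENSMUSG00000013089, chromosome 16, 22381309 to 22439719, minus strand, GRCm38) fell by 2.06 on the log2 scale, a level in Ring1A+B-DKO 0.240 times that in E14-WT. In the authors' deposited table it was the 24th largest of the 122 called decreases, whose median was -1.51, and 0.117% of all genes had a lower value. Etv4 (ENSMUSG00000017724, chromosome 11, 101769742 to 101785371, minus strand) stood at -1.43 and Etv1 (ENSMUSG00000004151, chromosome 12, 38779380 to 38870484, plus strand) at -1.33, and neither was called. Of the genes with an absolute log2 fold change within 0.1 of those of Etv4 and Etv1, the authors called 23.9% of 284 and 15.4% of 363. For Etv5 that share was 98.4% of 63 genes. The values of Etv4 and Etv1 thus lay among sizes that were mostly left uncalled, yet only 0.406% and 0.533% of genes had lower ones.

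None of the 3 factors was called in another comparison. Etv4 stood at 0.74 in Suz12-KO, with 99.1% of genes lower, while Etv1 and Etv5 stood at -0.43 and -0.35 there. In Ezh2-KO they stood at 0.32 for Etv1, -0.02 for Etv4 and -0.0028 for Etv5. In Ezh2-WT over E14-WT Etv1 stood at -0.91, Etv5 at -0.56 and Etv4 at -0.05. The values in Suz12-KO, Ring1A+B-DKO and Ezh2-WT are all set against the same E14-WT libraries, and Ezh2-WT carries no knockout. Etv1 and Etv5 each have a near-identical transcript elsewhere, that of Gm5454 over 1453 bases at 98.2% identity and of Gm4798 over 1700 bases at 98.6%. Gm5454 had a value only in Ezh2-KO (0.06), and no row of the table was matched to Gm4798, so how reads were divided between them is uncertain.

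Fos and Egr1 are immediate early genes, transcribed within minutes of ERK activation, and encode a subunit of the AP-1 factor and a zinc finger factor. Fos (ENSMUSG00000021250, chromosome 12, 85473890 to 85477273, plus strand) rose by 1.97 on the log2 scale in Ring1A+B-DKO, according to the authors' deposited table, to 3.92 times the level in E14-WT, though its reads in E14-WT appear to have been few, as its value in Suz12-KO shows. It ranked 151st by size among the 469 called increases, whose median was 1.80. It stood at 0.98 in Ezh2-KO, with 99.8% of genes lower, and at 0.83 in Ezh2-WT over E14-WT, with 97.4% lower, without a call in either. In Suz12-KO Fos stood at -0.06, a value that 718 genes share exactly. Of those 718 genes 57.4% had no read in at least 1 group, against 11.7% of the other genes with a value in Suz12-KO, so this is a value typical of genes with few reads, in Suz12-KO and in E14-WT alike. E14-WT is also the control for Fos in Ring1A+B-DKO and Ezh2-WT, whose sizes are therefore uncertain. Egr1 (ENSMUSG00000038418, chromosome 18, 34859823 to 34864984, plus strand) had no value in Suz12-KO or in Ezh2-WT over E14-WT, which by the reading above means no read in E14-WT, Suz12-KO or Ezh2-WT. Its values of 0.41 in Ezh2-KO and 0.68 in Ring1A+B-DKO therefore rest on reads in the mutant lines alone and could only lie above 0. Neither was called, and 10 genes share the value in Ring1A+B-DKO.

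Myc, a growth-promoting basic helix-loop-helix factor whose gene responds to ERK and whose protein ERK stabilises, was not called in any comparison. Myc (ENSMUSG00000022346, chromosome 15, 61985391 to 61990374, plus strand) stood at -0.79 in Ring1A+B-DKO, with 3.11% of genes lower, at -0.36 in Suz12-KO and at -0.47 in Ezh2-WT. In Ezh2-KO over Ezh2-WT it stood at 0.07. The first 3 of these values share the E14-WT libraries.

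**Figure D2:**
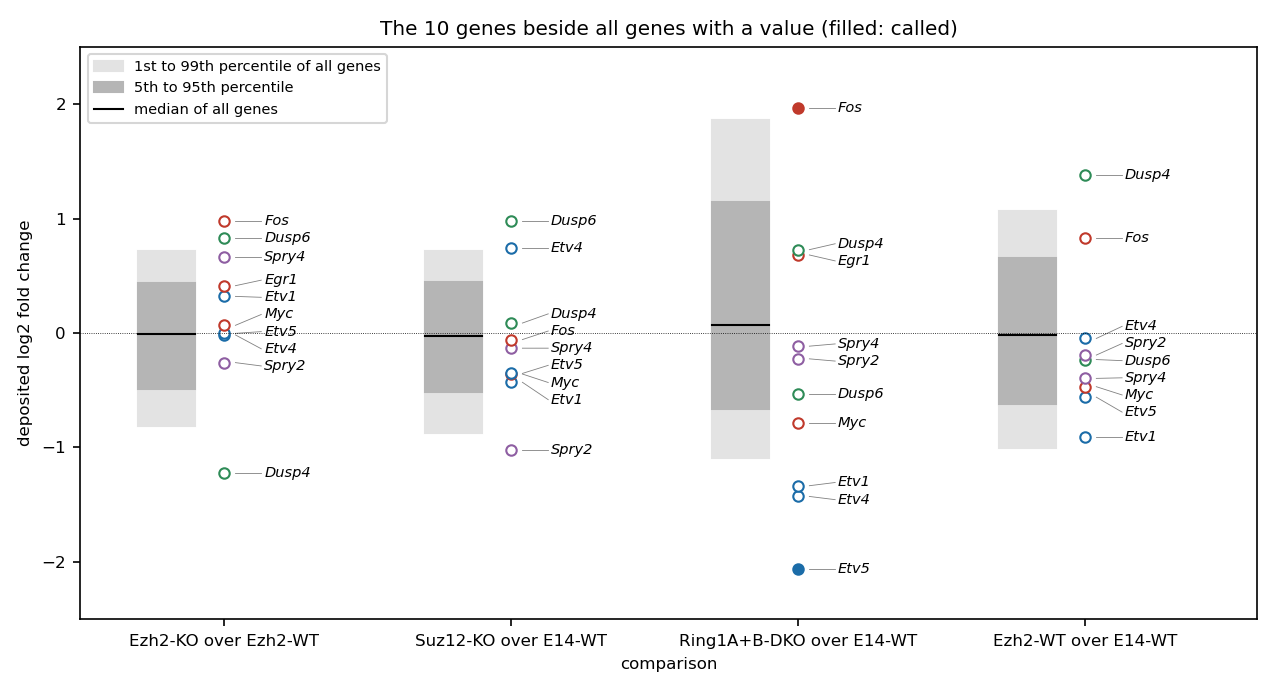
The 10 genes (points, filled where called) beside the spread of all genes with a value (grey bars, 1st to 99th and 5th to 95th percentile, black line the median) in each comparison, on the deposited log2 fold change scale. Fos, Etv1, Etv4 and Etv5 lie outside the 1st to 99th percentile in Ring1A+B-DKO; Dusp4, Dusp6 and Fos do so in Ezh2-KO, Spry2, Dusp6 and Etv4 in Suz12-KO, and Dusp4 between the wild-type lines.

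Among the feedback phosphatases, Dusp6, which acts on ERK in the cytoplasm, stood above 0 in both PRC2 knockouts. Dusp6 (ENSMUSG00000019960, chromosome 10, 99263231 to 99267489, plus strand) had log2 fold changes of 0.83 in Ezh2-KO and 0.98 in Suz12-KO in the authors' deposited table, with 99.5% and 99.7% of genes lower. These comparisons share no library. It stood at -0.54 in Ring1A+B-DKO and -0.23 in Ezh2-WT over E14-WT. None of its values was called, and the smallest called sizes were 1.06 in Ezh2-KO and 1.01 in Suz12-KO.

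Dusp4, a nuclear phosphatase of ERK (ENSMUSG00000031530, chromosome 8, 34807297 to 34819894, plus strand), had the lowest value of the 10 genes in Ezh2-KO, at -1.22, with 0.199% of genes lower. It had the highest value of the 9 between the wild-type lines, at 1.38 in Ezh2-WT over E14-WT, with 99.7% of genes lower. Both comparisons in the authors' deposited table use the Ezh2-WT libraries, once as control and once as the named group, and the 2 values nearly cancel. Their sum, 0.15, places Ezh2-KO near E14-WT. Dusp4 stood at 0.09 in Suz12-KO and at 0.73 in Ring1A+B-DKO. It was called in no comparison; of the genes within 0.1 of its size, 22.2% of 36 were called in Ezh2-KO and 29.7% of 64 between the wild-type lines.

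The Sprouty proteins restrain receptor signalling upstream of RAF. Spry2 (ENSMUSG00000022114, chromosome 14, 105891947 to 105896819, minus strand) stood at -1.02 in Suz12-KO, with 0.551% of genes lower, and was not called; 1.68% of the 119 genes of like size were. It stood at -0.26 in Ezh2-KO, -0.23 in Ring1A+B-DKO and -0.19 in Ezh2-WT over E14-WT. Spry4 (ENSMUSG00000024427, chromosome 18, 38586247 to 38601415, minus strand) stood at 0.67 in Ezh2-KO, with 98.6% of genes lower, and at -0.13 in Suz12-KO in the authors' deposited table, with -0.11 in Ring1A+B-DKO and -0.40 in Ezh2-WT over E14-WT. The Sprouty genes thus had their lowest and highest values in different lines. Spry4 overlaps 2 antisense gene models, and the use of strand in counting is not given in the sources used here.

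**Figure D3:**
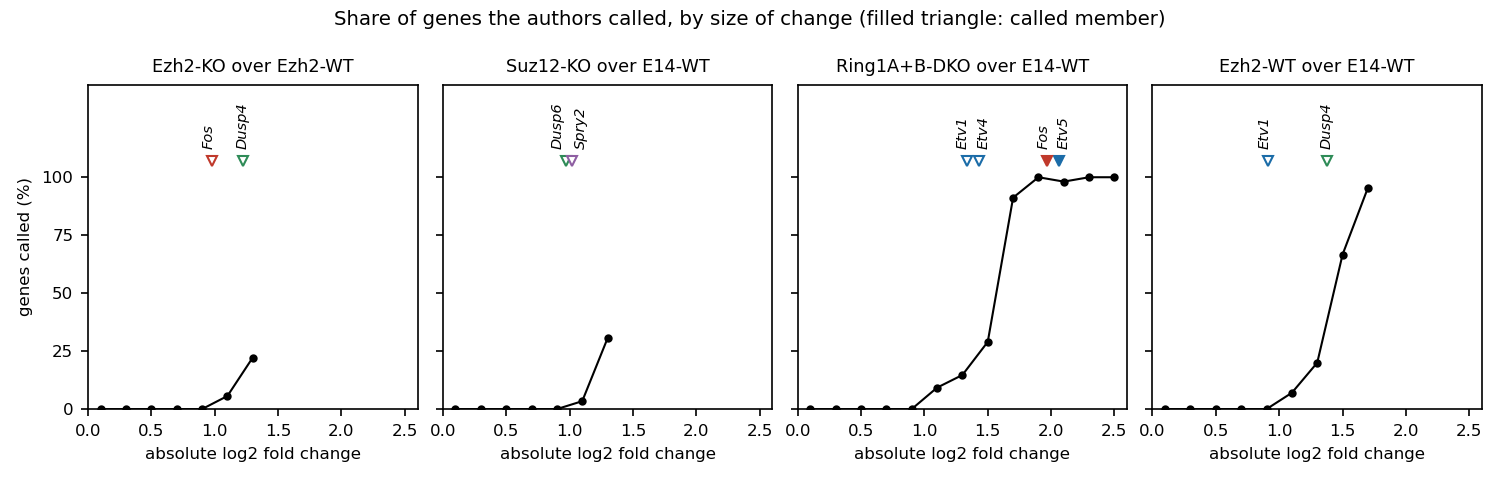
Share of genes the authors called (y axis, %) by absolute log2 fold change (x axis, bins 0.2 wide with at least 20 genes) in each comparison, with triangles at the sizes of members above 0.9, filled where called. In Ring1A+B-DKO the share is 14.7% between 1.2 and 1.4, 29.0% between 1.4 and 1.6 and 91.2% between 1.6 and 1.8, so Fos and Etv5 lie above the steep part and Etv1 and Etv4 below it.

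The lines were next ordered for each gene relative to E14-WT. The authors' deposited table has no comparison of Ezh2-KO with E14-WT, so the sum of Ezh2-KO over Ezh2-WT and Ezh2-WT over E14-WT was used, an approximation because sizes are drawn towards 0. Ring1A+B-DKO was lowest of the 5 lines for Etv1, Etv4, Etv5, Myc and Dusp6, and highest for Fos. For Etv5 the other 4 lines lay between -0.56 and 0 on the log2 scale, and Ring1A+B-DKO lay at -2.06. For Fos, Ring1A+B-DKO at 1.97 and Ezh2-KO at 1.81 lay next to each other, and Ezh2-WT lay at 0.83, while too few reads stand behind the value of -0.06 to place Suz12-KO against E14-WT. Dusp6 was highest in Suz12-KO, at 0.98, followed by Ezh2-KO at 0.60. Dusp4 was highest in Ezh2-WT, Spry4 in Ezh2-KO, and Spry2 lowest in Suz12-KO. Without values per sample, no neighbours in these orders can be shown to differ beyond their spread. The authors' calls cover only Ring1A+B-DKO against E14-WT for Fos and Etv5, and these lines are not neighbours in either order.

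**Figure D4:**
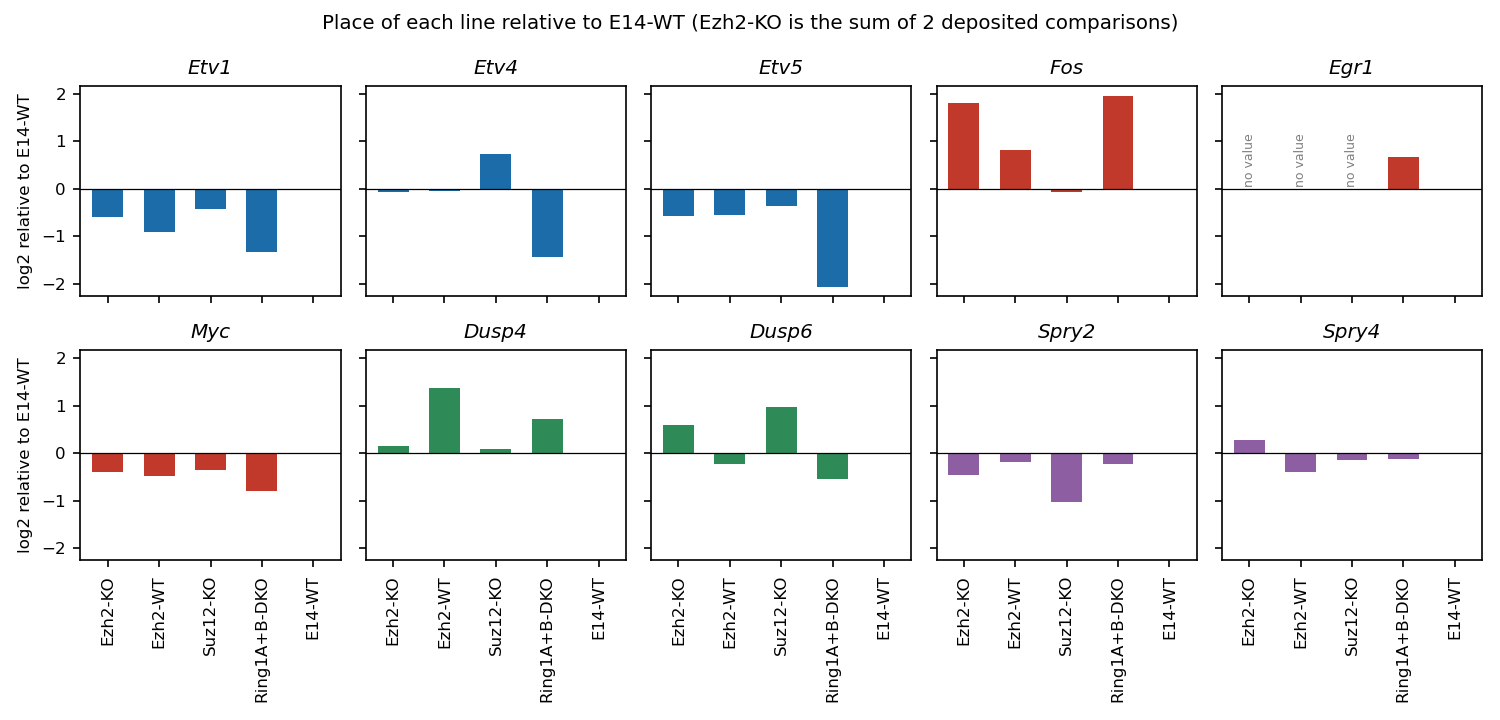
Log2 level of each gene in each line relative to E14-WT, which is 0 by definition; the bar of Ezh2-KO is the sum of 2 deposited comparisons and has no error. Etv5 lies between -0.56 and -0.35 in Ezh2-KO, Ezh2-WT and Suz12-KO and at -2.06 in Ring1A+B-DKO, and Fos lies at 1.81 in Ezh2-KO and 1.97 in Ring1A+B-DKO.

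Genes with a pattern most like that of the called members were sought among 13455 named genes with a value in all 4 comparisons, by Euclidean distance over the 4 log2 fold changes. For Etv5 the nearest were Dock5, Pla2g1b and Aoah, at distances of 0.33, 0.33 and 0.39. In the authors' deposited table each was called lower in Ring1A+B-DKO, at -1.79, -1.98 and -1.85. For Fos the nearest were Lad1, Mid1 and Prkra, farther away at 0.64, 0.67 and 0.73, all called higher in Ring1A+B-DKO, at 1.87, 1.73 and 1.57. Of these, Lad1 came closest to Fos in Ezh2-KO, at 0.81. The distance included the values in Ring1A+B-DKO, so the like directions and sizes there followed from how the genes were chosen.

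The calls among the other genes of the pathway are read against the shares of all genes called. These were 3% for Ring1A+B-DKO, 0.607% for the wild-type lines, 0.2% for Suz12-KO and 0.177% for Ezh2-KO, so 0 or 1 call in a short list says little about it. Of 32 components from FGF ligands to ERK, 0 were called in any comparison in the authors' deposited table, where between 30 and 32 had a value. Their medians lay between -0.07, in Suz12-KO, and 0.03, in Ezh2-KO, beside -0.03 and -0.01 for all genes in these comparisons. In Ring1A+B-DKO the largest sizes were those of the receptors Fgfr4 at 1.51, Fgfr2 at 1.40 and Fgfr3 at 0.90. The values of Fgfr4 and Fgfr2 in Suz12-KO were shared by 13 and 18 genes, so their reads in E14-WT may have been few. The ligand Fgf4 stood at -0.51 and the kinase gene Map2k1, encoding MEK1, at -0.61, also without a call. In Ezh2-KO the co-receptor Klb stood at -0.53, Fgfr4 at -0.49 and the GTPase Rras2 at 0.46. In Suz12-KO Fgfr3 stood at -0.41, Hras at 0.41 and Araf at -0.36.

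Of 18 other feedback inhibitors, 0 were called in the 3 knockouts and 1 between the wild-type lines, Socs3, an inhibitor of cytokine signalling, at 1.31 in Ezh2-WT over E14-WT in the authors' deposited table. In Ring1A+B-DKO the ERK phosphatase Dusp9 stood at 1.30, the ErbB inhibitor Errfi1 at 1.00 and Spred3, a relative of the Sprouty proteins, at 0.93. Dusp9 stood at -0.70 and Spry1 at -0.56 in Ezh2-KO, where Dusp1 stood at 0.53. In Suz12-KO Dusp14 stood at -0.74, Il17rd at -0.65 and Dusp7 at 0.46.

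Of 33 other immediate early and ERK-responsive genes, 30 had a value in Ring1A+B-DKO, and 4 rose and 0 fell, beside 2.38% of all genes called higher and 0.62% called lower. Their median was 0.25, beside 0.07 for all genes. The 4 that rose were the ETS factor Ets1 at 1.93, the chromatin protein Hmga2 at 1.67, the growth-arrest gene Btg2 at 1.48 and Jun, the partner of Fos in AP-1, at 1.47. Btg2 is also a target of p53. Ezh2-WT over E14-WT uses the same E14-WT libraries and holds no knockout. There Jun stood at 1.07, Btg2 at 0.62, Ets1 at -0.03 and Hmga2 at -0.24, without a call. Others of the list with values below 0 in Ring1A+B-DKO included Fosb at -0.37, a value shared by 66 genes, and Ier2 at -0.34. The value of Ets1 in Suz12-KO was shared by 32 genes, so its reads there and in E14-WT may have been few. In Ezh2-KO and Suz12-KO 1 of 29 rose in each, the cyclin D1 gene Ccnd1, at 1.31 and 1.07 in the authors' deposited table, and 0 fell. Between the wild-type lines Ccnd1 was the 1 gene of the list called, at -1.27 in Ezh2-WT over E14-WT, and it stood at -0.16 in Ring1A+B-DKO. Its values of 1.31 and -1.27 both use the Ezh2-WT libraries and nearly cancel, which places Ezh2-KO near E14-WT. Ccn1, a secreted matrix protein gene, followed at 1.20 in Ezh2-KO and 0.73 in Suz12-KO without a call, and Mcl1 stood at -0.62 in Suz12-KO. Maff stood at -0.93 in Ezh2-KO and at 0.96 in Ezh2-WT over E14-WT, values that likewise nearly cancel.

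Of 9 genes of the Myc family and its partners, 0 were called in any comparison, which at the shares given above says little about them. In the authors' deposited table Mycn stood at 0.64 in Ezh2-KO, 0.70 in Suz12-KO and, for the double knockout, -0.62, and Mycl at 0.72 in Ezh2-KO, 0.15 in Suz12-KO and -0.89 in Ring1A+B-DKO. In Ezh2-WT over E14-WT, which holds no knockout, Mycn stood at -0.49 and Mycl at -1.06. Ezh2-WT is also the control of the Ezh2-KO values, and E14-WT that of the others. Mxd1 stood at 0.39 in Ezh2-KO and -0.36 in Suz12-KO, Mxd4 at -0.74 in Suz12-KO, and Zbtb17 at 0.79 in Ring1A+B-DKO. Of 10 naive genes under the control of MEK inhibition or LIF, 1 rose in Ring1A+B-DKO, Klf4 at 1.04, and 1 fell, Gbx2 at -1.97. Gbx2 stood at -1.22 in Suz12-KO and -1.44 in Ezh2-WT over E14-WT without a call. Nanog was called between the wild-type lines, at -1.15 in Ezh2-WT over E14-WT. Among the uncalled, Tbx3 stood at -0.66, Prdm14 at 0.62 and Klf5 at -0.54 in Ezh2-KO, Klf4 at 0.70 and Prdm14 at 0.65 in Suz12-KO, and Tfcp2l1 at -0.62 in Ring1A+B-DKO.

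**Figure D5:**
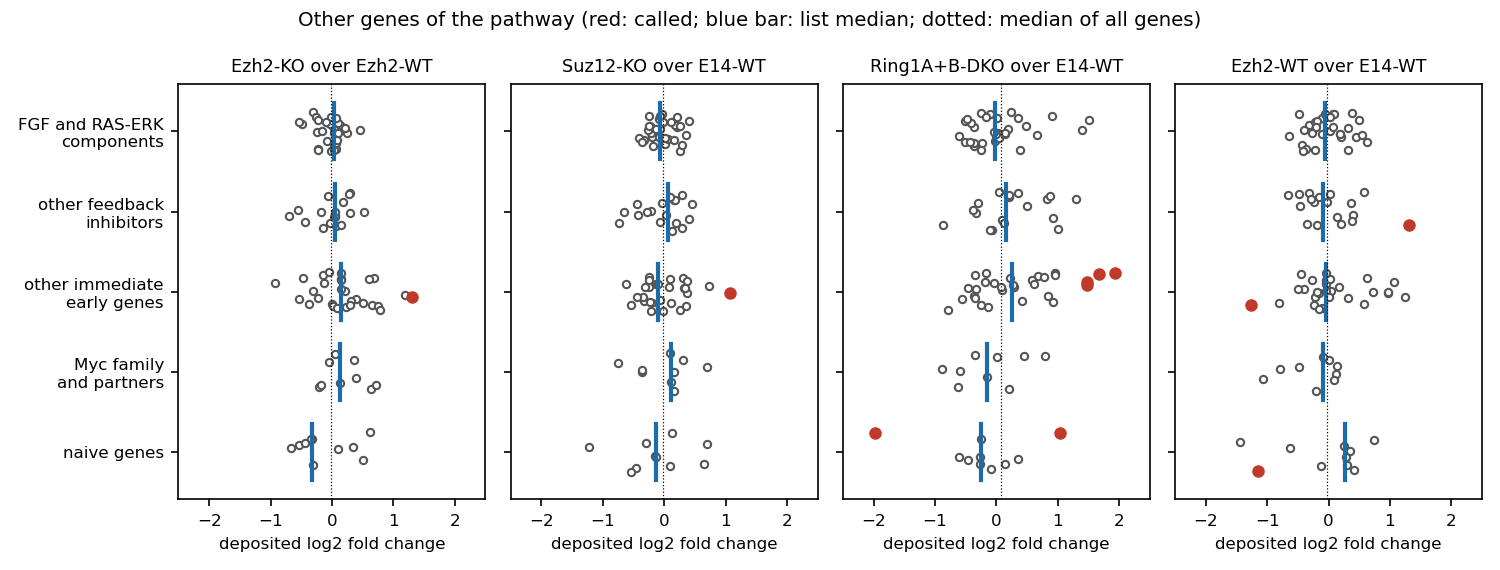
Deposited log2 fold change (x axis) of the other genes of the pathway, grouped by list (rows) in each comparison (panels), with called genes in red, the list median as a blue bar and the median of all genes dotted. The 32 core components hold 0 called genes in all 4 panels, and 4 of the other immediate early and ERK-responsive genes were called higher in Ring1A+B-DKO.

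Markers of other cell types, and of stem cells themselves, were called in the same comparison as Fos and Etv5. Of all genes there, 2.38% were called higher and 0.62% lower, 55.4% lay above 0, and the median was 0.07. According to the authors' deposited table, 5 of 10 primitive and visceral endoderm markers rose in Ring1A+B-DKO, all 10 lay above 0, between 0.53 and 2.83, and their median was 1.58. Gata6 stood at 2.69 and Gata4 at 2.39, both called. Gata6, Sox7 and Foxa2 lacked a value in another comparison against E14-WT. By the reading of missing values given above they had no read in E14-WT, so their values could only lie above 0. The value of Gata4 in Suz12-KO was shared by 64 genes, so its reads in E14-WT may also have been few. Of 8 trophoblast markers 2 rose, Krt18 at 3.10 and Krt8 at 2.62, and all 8 lay above 0, between 0.14 and 3.10, with a median of 1.04. Of 7 feeder fibroblast markers with a value 2 rose, Thy1 at 1.66 and Col5a1 at 1.33. The feeder list had 6 of 7 values above 0 and a median of 0.42, with Fn1 at -0.56 and with the values of Col3a1 and Twist2 shared by 150 and 356 genes. Col1a2, Col3a1 and Twist2 likewise had no read in E14-WT, so their values could only lie above 0. Of 6 formative and primed epiblast markers 1 rose, Otx2 at 1.88, and 1 fell, Lefty1 at -1.77, and the median was 0.18. Of 5 neural markers 2 fell, Tubb3 at -2.10 and Stmn2 at -1.86, while Pax6 at 1.47, Nes at 1.29 and Sox1 at 0.21 were not called, and the median was 0.21. Pax6 also had no read in E14-WT by that reading. Of the 8 embryonic stem cell markers, Klf4 rose and Sall4 fell, at -1.46, 3 of 8 lay above 0, and the median was -0.13. In bulk RNA, fewer cells of a type and less RNA per cell cannot be told apart. In Ezh2-KO 0 markers of these 5 other cell types were called, and in Suz12-KO 2 were, Lamb1 at -1.80 and Lefty2 at 1.31. Between the wild-type lines Lefty1 was called, at -1.72 in Ezh2-WT over E14-WT, and Otx2 stood at 1.08 without a call. Also uncalled there, Tubb3 stood at -0.98, Sall4 at -0.93 and Stmn2 at -0.77. Gata4 stood at 1.07, Krt8 at 0.78 and Krt18 at 0.67, so these 6 had the same sign as in Ring1A+B-DKO. Of the markers called in Ring1A+B-DKO, Col4a1 at -1.26, Col5a1 at -0.86 and Thy1 at -0.27 had the opposite sign between the wild-type lines. That comparison shares the E14-WT libraries with Ring1A+B-DKO and holds no knockout. The part of such cells in the values of Fos and Etv5 was not tested.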

How the data were processed

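TopHat, featureCounts and DESeq2 were used on GRCm38 (mm10), per the submitters' processing notes, with versions, settings and filters not given in the sources used here. The authors deposited log2 fold changes for 38355 genes of Ensembl release 72 and, as another kind of value, a true or false call whose criteria are not stated. Without values per sample the planned tests could not be used, and the authors' call stands in their place.

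Genes with no read in the control must be positive if a column is named group over control. This held for 922 of 922 in Ezh2-KO, while 1064 of 1064 were negative for Suz12-KO, 2259 of 2259 for Ring1A+B-DKO and 1170 of 1170 for Ezh2-WT, so these 3 columns were turned. These genes had small values despite their empty control, with a median size of 0.085 in Ezh2-KO and 0.20 in Ring1A+B-DKO.

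GENCODE mouse release 21 gave symbols and coordinates, for 36602 identifiers (95.4%). Transcripts alike at 95% identity over at least 100 bases and 50% of the shorter one were found with blastn 2.17.0. RefSeq windows matched 5 of the 10 genes by symbol. From each pathway list the called genes were named and, in the knockouts, the largest uncalled ones up to 3; Fgf4, Map2k1, Fosb, Ier2 and the cell type markers were named after their values were seen. The genes and lists were chosen with earlier results of these data known. Python 3.11.15, numpy 2.4.6, pandas 2.3.3 and matplotlib 3.10.9 were used.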

Additional observations from a re-analysis of the deposited data

How the results depend on the processing

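Without regard to the call, a log2 size of 1 or more was reached by 4 members in Ring1A+B-DKO, where 2 were called, and by 1 member in each of the other comparisons, where 0 were. A size of 0.5 or more was reached by 8 in Ring1A+B-DKO, 4 in Ezh2-KO, 3 in Suz12-KO and 4 in Ezh2-WT over E14-WT. Requiring both a call and a size of at least 1.5 changed no count. Centring on the median of all genes moved all 42 values and medians by less than 0.1, enough to put Dusp6 (1.001) past a size of 1 in Suz12-KO and Spry2 (-0.995) under it. With members that share no value with another gene, the median became 0.32 in Ezh2-KO, -0.35 in Suz12-KO and -0.54 in Ring1A+B-DKO, since fewer members entered. This setting does not single out genes with few reads, since in Ezh2-KO it removed Myc and kept Egr1. The mean was -0.067 in Ezh2-WT over E14-WT, against a median of -0.23, and the 3 other means lay within 0.1 of their medians. Leaving out replicates and edgeR were not run, since they need values per sample. No paired analysis was possible because the table holds no values per sample. Depth per sample is unknown, and few reads limit the values of Egr1 and those of Fos set against E14-WT.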
